A study of Mus musculus with 12 samples.

Results

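The Reg proteins and the receptor axis of the cytokine interleukin-22 (IL-22) were followed through 10 of the 47729 genes in the count table. The 10 genes were chosen by their symbols, with earlier results of these data in view: *Il22ra1*, *Il10rb*, *Stat3*, *Socs3*, *Reg1*, *Reg3a*, *Reg3b*, *Reg3g*, *Reg4* and *Dmbt1*. Their values therefore describe a fit made across all genes and are not independent support for any pattern. All 10 genes passed the filter on low counts in every comparison.

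RNA was sequenced from intestinal stem cells (ISCs) that were sorted from small intestines, the mice being of the genotype *Lgr5-EGFP-IRES-CreERT2*, in 4 groups of 3 libraries, to ask what a single exposure to restraint or to corticosterone does to these cells. Stress mice were restrained, and Ctrl mice were kept without food and water for as long. CORT mice received corticosterone by intraperitoneal injection and vehicle mice received the injection without it. All groups, controls included, carried the same allele, which places EGFP under *Lgr5*, a Wnt target gene of crypt base cells. Living epithelial cells with high EGFP and without CD24, blood and endothelial markers were sorted, so the values hold for that gate and not for the whole crypt. Mice of both sexes and matched age were used, and the labels give neither the sex nor the age for each library. The stress libraries are titled 1+2, 3 and 4+5+6, which reads as pools of mice, and the labels carry the abbreviation of chronic restraint although the exposure was single. The methods speak of biologically independent samples in general, and the labels do not name the mouse or mice behind a library.

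The 12 libraries held 15934907 to 17135770 counts in stress, 16152289 to 16943362 in Ctrl, 16465961 to 31280267 in vehicle and 29426183 to 69533214 in CORT. About 4 of these counts stand for 1 read pair. The summed level of 6 ISC markers was 10680 to 13940 CPM (counts scaled to a common library size) in every library, most of it *Olfm4* (6884 to 10350 CPM). Within it *Ascl2*, a transcription factor of ISCs, fell in stress (log2 -1.23, adjusted p = 0.000336, edgeR), and *Ascl2* (-0.998, 0.0114), *Lgr5* (-0.43, 0.0277) and *Smoc2* (-0.31, 0.0474) fell in CORT. The summed levels of 6 blood markers and of 6 markers of stroma and endothelium were at most 1.73 and 3.24 CPM, with *Csf1r*, *Col3a1* and *Kdr* at 0 throughout. The endothelial marker *Pecam1*, at low levels, was higher in CORT than in vehicle (log2 2.125, 4.36-fold, adjusted p = 0.0427, edgeR). It was at 0.951, 0.291 and 0.389 CPM in vehicle and 1.46, 2.35 and 3.24 CPM in CORT. The sum of 6 enterocyte markers was 82.0 to 103.7 CPM in Ctrl, 67.0 to 119 in vehicle and 29.5 to 84.4 in CORT. It was 243 to 1492 CPM in stress, where all 6 markers rose (adjusted p of 0.0358 or less, edgeR), and the part of these markers in the results was not tested.

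IL-22 is made by lymphoid cells of the gut wall and acts on epithelial cells through a receptor of 2 chains. IL-22RA1 binds IL-22 and is largely restricted to epithelia, and IL-10RB is a chain that several cytokine receptors share. The receptor activates STAT3, a transcription factor, and SOCS3 is induced by STAT3 and shuts the signal off. REG3B and REG3G are secreted C-type lectins that act on bacteria near the mucosa, and their genes are well-known epithelial targets of IL-22.

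*Il22ra1* was called higher after both restraint and corticosterone, and *Reg3b* was called higher after the first and lower after the second. Of the 10 genes, 4 were called in stress vs. Ctrl (adjusted p under 0.05 in edgeR's quasi-likelihood test with Benjamini-Hochberg adjustment, and over 2-fold), all higher: *Reg1*, *Reg3a*, *Reg3b* and *Il22ra1*. Of 13722 genes tested, 0.612% were called higher and 0.138% lower. In CORT vs. vehicle, 1 of the 10 was called higher, *Il22ra1*, and 3 were called lower, *Reg3b*, *Reg3g* and *Socs3*, where 1.13% of 14656 genes tested were called higher and 0.737% lower. With no fold threshold, 5 of the 10 passed in each comparison, where 1.89% and 8.13% of all genes tested did. The median log2 fold change of the 10 genes was 0.996 in stress and -0.642 in CORT, beside -0.00281 and 0.0139 for all genes tested.

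**Figure D1:**
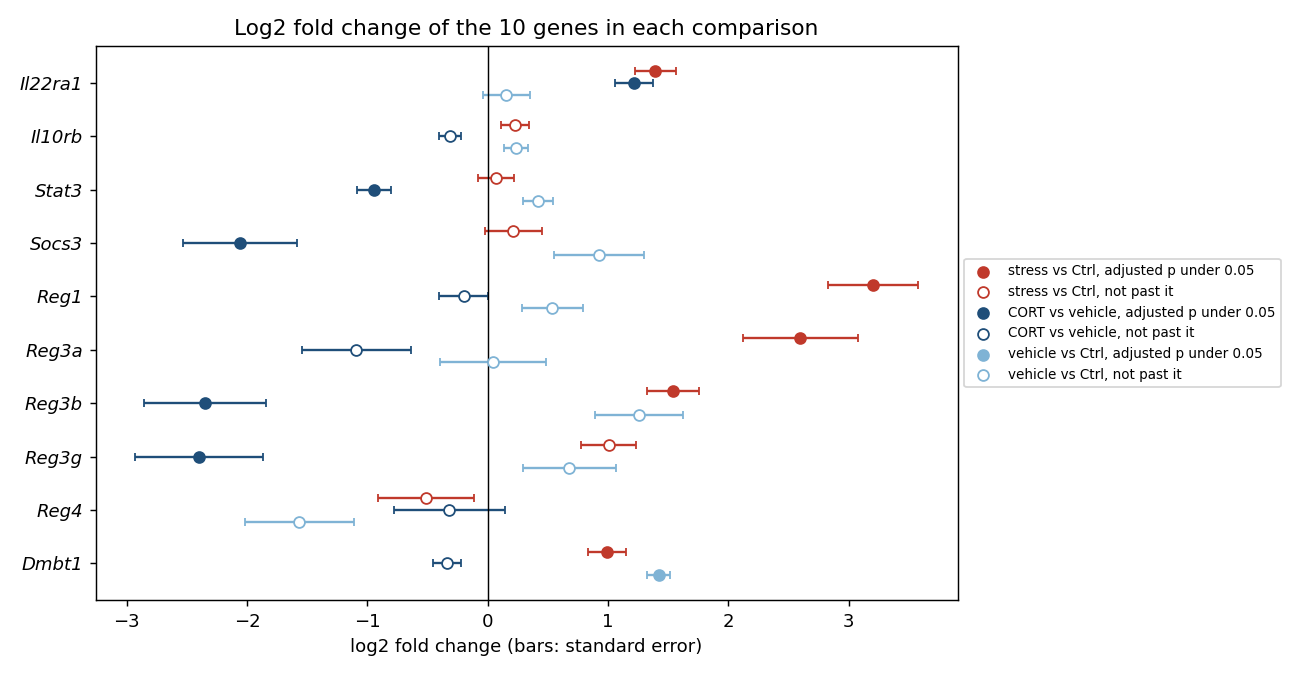
Log2 fold change of each gene (horizontal axis, bars are the standard error) in stress vs. Ctrl, CORT vs. vehicle and vehicle vs. Ctrl, 3 libraries a group; filled points have an adjusted p under 0.05 in edgeR's test. *Il22ra1* lies at 1.39 and 1.21 in the first and second comparisons, while *Reg3b* lies at 1.54 in stress and at -2.35 in CORT.

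*Il22ra1* encodes the chain that binds IL-22. Its level was 11.2, 12.5 and 9.21 CPM in Ctrl libraries 1, 2 and 3, and 32.7, 27.0 and 26.7 CPM in stress libraries 1+2, 3 and 4+5+6. It was 13.8, 12.6 and 10.2 CPM in vehicle libraries 3, 5 and 6, and 26.5, 32.2 and 26.0 CPM in CORT libraries 2, 4 and 5. All 6 exposed libraries lay above all 6 control libraries, and the stress and CORT levels overlapped. *Il22ra1* rose by a log2 fold change of 1.39 ± 0.17 (SE) in stress (2.63-fold, adjusted p = 0.00334, edgeR) and by 1.21 ± 0.16 in CORT (2.32-fold, adjusted p = 0.0022). The difference between the responses was 0.18 ± 0.23 on the log2 scale (adjusted p = 0.812), and that between vehicle and Ctrl 0.15 ± 0.20 (adjusted p = 0.847). With each library left out in turn, the rise was at least 1.29 in stress and 1.09 in CORT and stayed past the threshold each time. In bulk RNA, fewer cells of a type and less RNA per cell cannot be told apart, which holds for every level given here.

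*Il10rb*, the shared chain, moved little. It was at 37.6, 36.7 and 35.2 CPM in Ctrl, 48.1, 41.6 and 38.5 in stress, 41.8, 44.0 and 42.5 in vehicle, and 34.1, 36.8 and 32.4 in CORT. Stress lay above Ctrl and CORT below vehicle without overlap, but neither difference passed the test (log2 0.23 ± 0.12, adjusted p = 0.403, and -0.32 ± 0.09, adjusted p = 0.0626). Of the windows of 100 bases along its longest coding transcript, 27% also occur in *Gm21970*, an overlapping gene of the same strand, so its counts are less certain than those of the other 9 genes, for which no such window was found.

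The balance between the mRNAs of the receptor chains can be read from FPKM, which divide by transcript length. In Ctrl, *Il10rb* stood at 18.2 ± 0.33 FPKM (SD, n = 3) and *Il22ra1* at 3.82 ± 0.53, a ratio of 4.11 to 5.62 across libraries. The ratio was 4.28 to 5.78 in vehicle, 2.02 to 2.12 in stress and 1.62 to 1.81 in CORT. *Il22ra1* thus remained the scarcer mRNA in all 12 libraries, and the ratio of every exposed library lay below that of every control library. This ratio is a description and was not tested, it shares the uncertainty of the *Il10rb* counts, and the proteins were not measured.

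**Figure D2:**
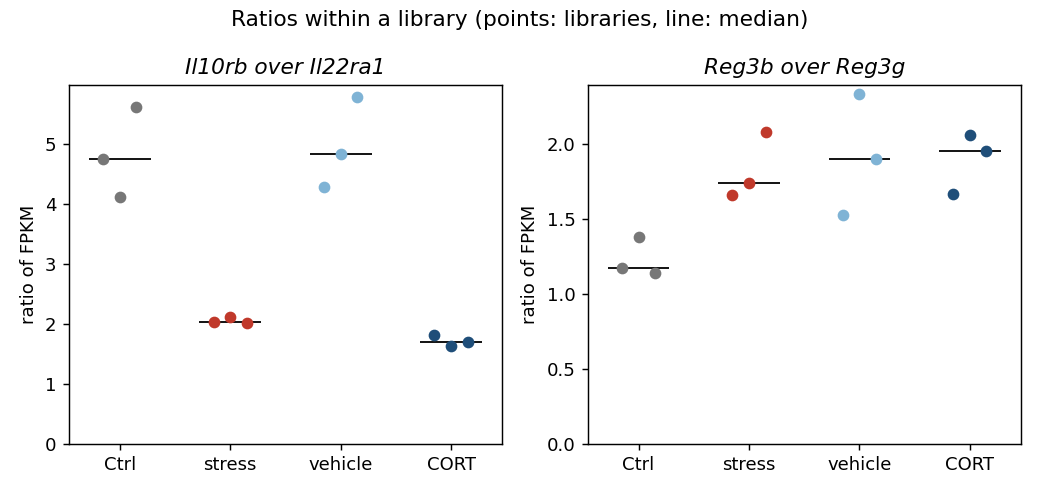
Ratio of FPKM of *Il10rb* over *Il22ra1* (left) and of *Reg3b* over *Reg3g* (right) in each library (points) with the median of each group (line). The receptor ratio is 4.11 to 5.78 in the control groups and 1.62 to 2.12 in the exposed groups, and the *Reg3b* ratio is 1.14 to 1.38 in Ctrl and 1.53 to 2.34 in the other 3 groups.

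*Stat3*, the transcription factor that the receptor activates, was at 71.9, 55.7 and 62.6 CPM in Ctrl and 63.2, 80.9 and 55.3 CPM in stress. These levels overlapped, and the difference was 0.07 ± 0.15 on the log2 scale (adjusted p = 0.884, edgeR). Vehicle libraries stood at 76.6, 77.2 and 99.3 CPM and CORT libraries at 51.4, 37.5 and 43.0 CPM, with no overlap. *Stat3* fell by 0.95 ± 0.14 on the log2 scale in CORT (1.93-fold, adjusted p = 0.00409), just under the 2-fold threshold. Left-out libraries moved this value between -1.07 and -0.81, past the adjusted threshold each time. The difference between the responses, 1.01 ± 0.22, did not pass the test (adjusted p = 0.0743). It passed in 1 of 8 other settings with all libraries kept, and in 0 of 12 fits with a library left out.

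*Socs3*, the feedback inhibitor of STAT3, was at 14.7, 13.3 and 18.1 CPM in Ctrl and 21.0, 20.7 and 11.7 CPM in stress, which overlapped (log2 0.21 ± 0.24, adjusted p = 0.746, edgeR). It was at 13.8, 21.8 and 51.2 CPM in vehicle libraries 3, 5 and 6 and at 4.14, 7.08 and 9.98 CPM in CORT libraries 2, 4 and 5. Every CORT library lay below every other library of the series, and vehicle 6 lay far above the rest. Vehicle 6 was also the deepest of its group, with 31280267 counts beside 16465961 and 16889139 in vehicle 3 and 5. The fall in CORT was -2.06 ± 0.47 on the log2 scale (4.17-fold, adjusted p = 0.0285). Without vehicle 6 it was -1.35 (adjusted p = 0.0725), and without vehicle 5, CORT 2 or CORT 4 it was -2.23, -1.79 and -2.06 with adjusted p of 0.0526, 0.0778 and 0.106. The difference between the responses was 2.27 ± 0.59 (adjusted p = 0.108).

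**Figure D3:**
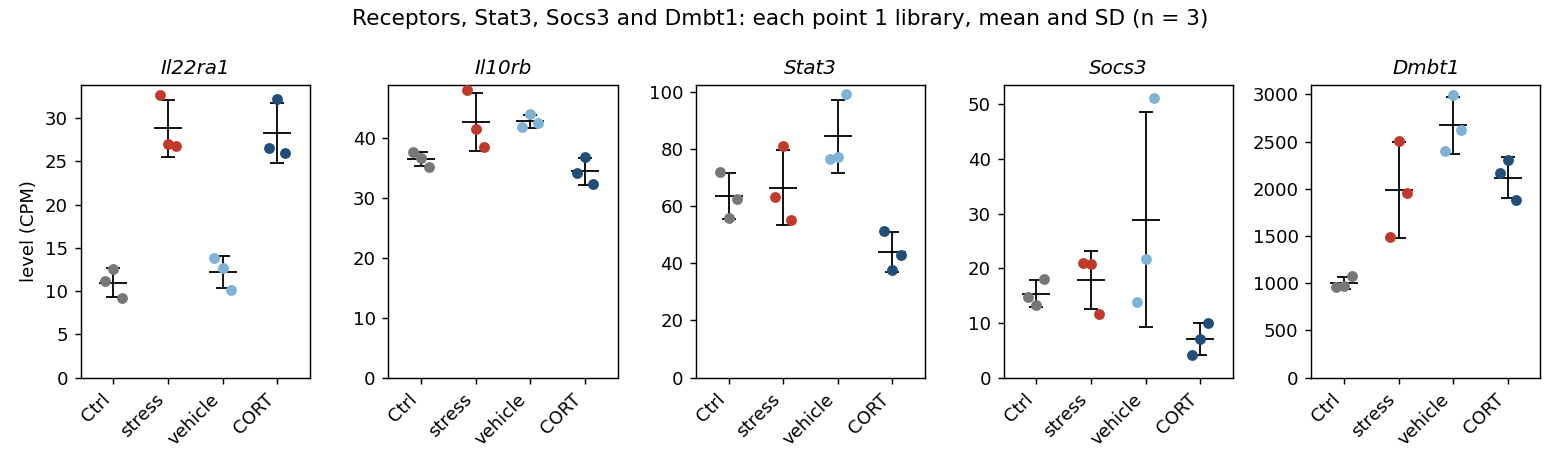
Level in CPM (vertical axis, from 0) of *Il22ra1*, *Il10rb*, *Stat3*, *Socs3* and *Dmbt1* in each library (points) with the mean and SD of each group (n = 3). *Socs3* reaches 51.2 CPM in vehicle 6 and is at most 9.98 CPM in CORT, and *Dmbt1* is lowest in the 3 Ctrl libraries, at 959.7 to 1077 CPM.

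Of the Reg genes, *Reg1*, *Reg3a*, *Reg3b* and *Reg3g* lie within 98216 bases of mouse chromosome 6 (mm10, chr6:78370657-78468872), and *Reg4* lies on chromosome 3. Within the cluster, the longest coding transcripts are 65.2% to 75.5% identical over aligned bases, with 74.4% between *Reg3b* and *Reg3g*. No window of 100 bases was common to any of them.

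*Reg3b* and *Reg3g* were the most abundant Reg genes, at 156 ± 37.5 and 127 ± 32.7 FPKM in Ctrl. *Reg3b* rose with restraint, and both genes fell with corticosterone. *Reg3b* was at 165, 136 and 98.9 CPM in Ctrl and at 332, 513 and 316 CPM in stress. It was at 224, 162 and 564.5 CPM in vehicle libraries 3, 5 and 6 and at 48.1, 35.3 and 105 CPM in CORT libraries 2, 4 and 5. Stress lay above Ctrl and CORT below vehicle with no overlap, and vehicle 6 held the highest level of the series. *Reg3b* rose by 1.54 ± 0.21 on the log2 scale in stress (2.91-fold, adjusted p = 0.00767, edgeR) and fell by 2.35 ± 0.51 in CORT (5.10-fold, adjusted p = 0.0226). The responses differed by 3.89 ± 0.63 on the log2 scale (adjusted p = 0.0209), and the difference of vehicle from Ctrl was 1.25 ± 0.37 (adjusted p = 0.18), or 1.57 without vehicle 5 (adjusted p = 0.0391). The rise lost the threshold without Ctrl 2 (1.55, adjusted p = 0.0506), in 1 fit on all 12 libraries (0.0748), with no filter on low counts (0.0747) and with unfiltered log2(FPKM + 1) (0.134). The fall was -1.63 without vehicle 6 (adjusted p = 0.0583), -2.19 without CORT 2 (adjusted p = 0.0748) and -2.06 without CORT 4 (adjusted p = 0.0889).

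*Reg3g* was at 148, 104 and 93.5 CPM in Ctrl, and at 215.5, 315 and 163 CPM in stress. It was at 159, 72.5 and 319.5 CPM in vehicle and at 29.6, 18.5 and 58.0 CPM in CORT. The groups of each comparison again did not overlap, and vehicle 6 was again the highest library, as it was for *Stat3* and *Socs3*. The difference in stress was 1.004 ± 0.23 on the log2 scale and did not pass the test (adjusted p = 0.0625, edgeR), and it passed without stress 3 (0.72, adjusted p = 0.0415) or stress 4+5+6 (1.20, adjusted p = 0.0343). In CORT *Reg3g* fell by 2.40 ± 0.53 (5.27-fold, adjusted p = 0.0255), and by 1.73 without vehicle 6 (adjusted p = 0.0768), by 2.29 without CORT 2 (adjusted p = 0.081) and by 2.08 without CORT 4 (adjusted p = 0.0955). The responses differed by 3.40 ± 0.67 (adjusted p = 0.0461).

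Over the 12 libraries, *Reg3g* was the gene most like *Reg3b*, with a Pearson r of 0.967 between their log2 levels, and the next was *Slc39a4*, a zinc transporter, at 0.902. These are descriptions over libraries of 4 groups. The ratio of *Reg3b* to *Reg3g* in FPKM was 1.14 to 1.38 in Ctrl, 1.66 to 2.08 in stress, 1.53 to 2.34 in vehicle and 1.67 to 2.06 in CORT. The Ctrl libraries thus had less *Reg3b* per *Reg3g* than the other 9, and the ratio did not separate CORT from vehicle.

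The stretches before the starts of *Reg3b* and *Reg3g* are shown because these genes moved together, and that of *Socs3* because it fell with them in CORT. Each runs from 178 to 86 bases before the RefSeq start (GRCm38.p6), 5′ to 3′ on the strand of the gene and outside annotated exons. The annotated spans of *Reg3b* (chr6:78370657-78373466) and *Socs3* (chr11:117966079-117970047) begin further upstream, so their stretches lie inside the annotated gene. That of *Reg3g* lies outside its span (chr6:78466269-78468872). Capitals mark TTCNNNGAA, the palindrome that STAT factors bind, searched on both strands.
Reg3b, chr6:78370707-78370799, plus strand: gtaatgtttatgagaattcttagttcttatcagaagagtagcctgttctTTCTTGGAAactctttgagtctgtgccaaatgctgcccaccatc
Reg3g, chr6:78468960-78469052, minus strand: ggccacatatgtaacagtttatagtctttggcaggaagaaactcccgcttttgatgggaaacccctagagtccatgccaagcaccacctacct
Socs3, chr11:117969452-117969544, minus strand: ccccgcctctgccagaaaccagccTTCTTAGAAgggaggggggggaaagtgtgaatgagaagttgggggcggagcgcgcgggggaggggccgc

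Promoters of 250 bases were at hand for 8 of the 10 genes, and 2 of them held TTCNNNGAA, *Reg3b* and *Socs3*, from 129 and 154 bases before the start. It occurs in 7.02% of 32851 promoters of that length. The promoters of *Reg3b* and *Reg3g* are 70% identical over 247 aligned bases, and 6 of the 9 bases of the match in *Reg3b* are the same in *Reg3g*. The half-site AGAACA (or TGTTCT) of the glucocorticoid receptor occurred in *Reg3a*, *Reg3b* and *Stat3*, 155, 135 and 147 bases before the start, and in 16.1% of all promoters. In *Reg3b* it abuts the STAT match without overlapping it. A match is a description of letters and not a bound site.

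*Reg1*, whose protein is a secreted lectin of regenerating epithelium and pancreas, showed the largest change of the 10 genes in stress. It was at 6.26, 5.26 and 8.17 CPM in Ctrl and at 38.6, 40.8 and 102 CPM in stress libraries 1+2, 3 and 4+5+6. It was at 7.01, 9.72 and 11.6 CPM in vehicle and at 8.19, 8.52 and 8.12 CPM in CORT. The stress libraries lay above all others, which overlapped among themselves. *Reg1* rose by 3.20 ± 0.38 on the log2 scale (9.21-fold, adjusted p = 0.00318, edgeR), and by 2.60 without stress 4+5+6, and passed the test with any library left out. The difference was -0.20 ± 0.20 in CORT vs. vehicle (adjusted p = 0.618), and the responses differed by 3.40 ± 0.46 (adjusted p = 0.00711), or 2.79 without stress 4+5+6.

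*Reg3a* had the lowest level per length of the 10 genes in Ctrl, 1.95 ± 0.21 FPKM. There it was at 1.64, 1.79 and 2.01 CPM, from 28 to 33 counts, where about 4 counts stand for 1 read pair. It was at 10.4, 4.31 and 18.3 CPM in stress, at 1.55, 1.34 and 2.66 CPM in vehicle and at 0.583, 0.965 and 1.10 CPM in CORT. Every stress library lay above all others and every CORT library below. *Reg3a* rose by 2.60 ± 0.48 on the log2 scale in stress (6.05-fold, adjusted p = 0.0255, edgeR), and its difference in CORT was -1.09 ± 0.45 (adjusted p = 0.185). The rise in stress lost the threshold without any one of Ctrl 1, Ctrl 2, Ctrl 3, stress 1+2 and stress 4+5+6 (2.02 to 2.68, adjusted p of 0.0735 to 0.146). It also lost it with no filter on low counts (adjusted p = 0.125), with log2(FPKM + 1), at 1.94 (0.0913, and 0.233 unfiltered), and with log2(FPKM + 0.1), at 2.32 (0.0662). The responses differed by 3.70 ± 0.66 (adjusted p = 0.0355).

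The enterocyte marker sum was 694, 243 and 1492 CPM in stress libraries 1+2, 3 and 4+5+6. *Reg3a* followed the same order and *Reg1* was highest in 4+5+6 as well, whereas *Reg3b* and *Reg3g* were highest in stress 3. The genes most like *Reg1* over the 12 libraries were *Rbp2*, a retinol-binding protein of enterocytes (r = 0.974), *G6pc* (0.970) and *Cdkn2b* (0.940). Those most like *Reg3a* were *Lgals3* (0.975), *Ace* (0.973) and *Spink1* (0.968). The sum of 6 Paneth markers was 136 to 173 CPM in Ctrl, 169 to 263 in stress, 186 to 211 in vehicle and 104 to 116 in CORT, where 4 of the 6 fell (*Defa17*, *Defa24*, *Mmp7* and *Itln1*). The higher sum in vehicle came from *Mmp7*, at 16.5 to 25.7 CPM in Ctrl and at least 79.2 CPM in vehicle, while the log2 differences of the other 5 between vehicle and Ctrl were -0.58 to -0.18 and did not pass the test. In stress 1 Paneth marker rose, *Mmp7*, and so did 2 of 6 goblet markers, *Clca1* and *Zg16*. Stress 3, where *Reg3b* and *Reg3g* were highest, had the lowest Paneth and enterocyte sums of its group. What these markers contribute to the Reg levels was not tested.

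*Reg4*, a Reg gene of enteroendocrine and goblet cells, was at 4.56, 7.12 and 3.72 CPM in Ctrl, 2.74, 2.55 and 5.48 in stress, 0.773, 2.68 and 1.72 in vehicle and 1.44, 1.41 and 1.31 in CORT. Both exposed groups overlapped their controls. The differences were -0.51 ± 0.40 in stress (adjusted p = 0.622, edgeR), -0.32 ± 0.46 in CORT (adjusted p = 0.742) and -1.57 ± 0.45 in vehicle vs. Ctrl (adjusted p = 0.175). The sum of 6 enteroendocrine markers was 29.5 to 59.5 CPM in Ctrl and 12.2 to 30.1 CPM in vehicle, and its part in the level of *Reg4* was not tested.

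**Figure D4:**
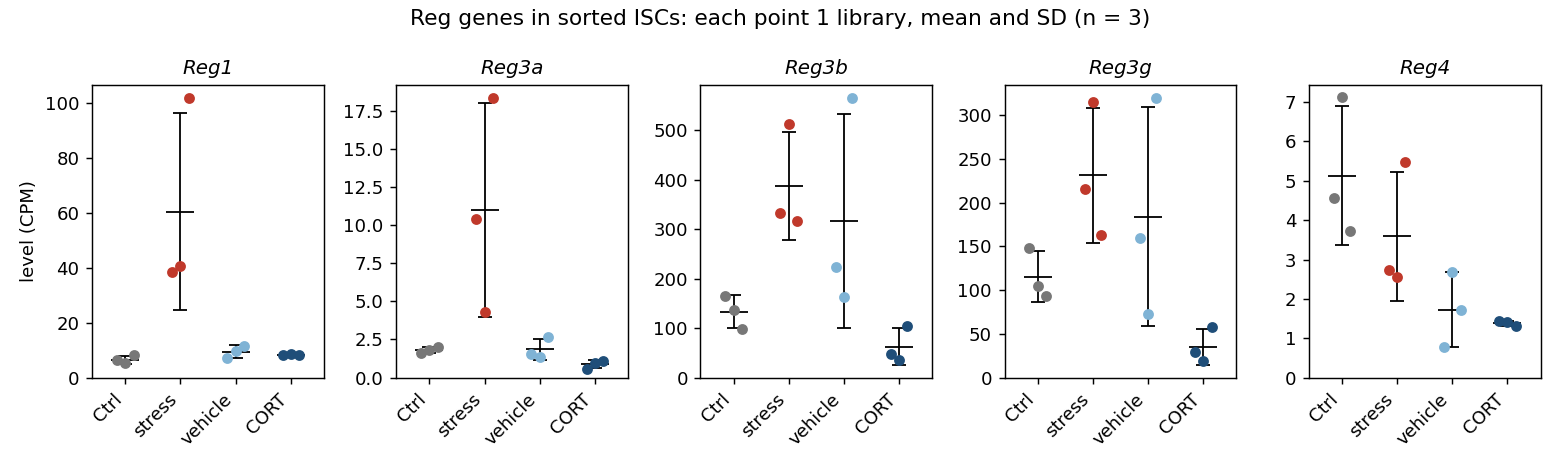
Level in CPM (vertical axis, from 0, with its own scale in each panel) of the 5 Reg genes in each library (points) with the mean and SD of each group (n = 3). *Reg1* and *Reg3a* stand apart in the 3 stress libraries, at 38.6 to 102 and 4.31 to 18.3 CPM. *Reg3b* and *Reg3g* have their lowest mean in CORT and spread widely in vehicle, and *Reg3b* is higher in CORT 5 (105 CPM) than in Ctrl 3 (98.9 CPM).

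*Dmbt1*, which encodes a large mucin-like protein that binds bacteria and is secreted onto the epithelium, stood at 151 ± 10.9 FPKM in Ctrl, near *Reg3b*, and at 305 ± 31.1 FPKM in CORT, above all others of the 10 genes. It was at 959.7, 967.7 and 1077 CPM in Ctrl and at 1490, 2508 and 1956 CPM in stress. It was at 2399, 2998 and 2628 CPM in vehicle and at 2173, 2303 and 1880 CPM in CORT. The Ctrl libraries were the lowest of the series, and the vehicle libraries lay above CORT and overlapped stress. *Dmbt1* rose by 0.99 ± 0.16 on the log2 scale in stress (1.98-fold, adjusted p = 0.0162, edgeR), under the 2-fold threshold, and the value lost the adjusted threshold without Ctrl 1, Ctrl 2 or Ctrl 3 (adjusted p of 0.116, 0.0864 and 0.0707). The difference in CORT vs. vehicle was -0.34 ± 0.11 (adjusted p = 0.107), and that between the responses 1.32 ± 0.21 (adjusted p = 0.0207). *Dmbt1* was the 1 gene of the 10 called in vehicle vs. Ctrl, where 0.359% of 13642 genes were called, with a rise of 1.42 ± 0.10 (2.68-fold, adjusted p = 8.22e-05). The Paneth marker *Mmp7* (4.11-fold, adjusted p = 0.000183) and the enterocyte marker *Fabp1* (3.77-fold, adjusted p = 0.0183) were also called higher in vehicle vs. Ctrl, and their part in the rise of *Dmbt1* was not tested. The vehicle and stress groups both share the Ctrl libraries in these comparisons. Ctrl mice were kept without food and water, which is not stated for vehicle mice. Injection, the injected vehicle, this deprivation and cohort cannot be told apart.

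*Dmbt1* lies inside the annotated span of *Fgfr2*, a growth factor receptor gene of the opposite strand, and no source says that reads were counted by strand. *Fgfr2* was at 54.2 to 60.4 CPM in Ctrl, 45.5 to 54.9 in stress, 61.6 to 75.4 in vehicle and 23.8 to 28.7 in CORT, far below *Dmbt1*. *Fgfr2* fell by 1.32 ± 0.11 on the log2 scale in CORT (2.49-fold, adjusted p = 0.000304, edgeR) and its difference in stress was -0.14 ± 0.11 (adjusted p = 0.609).

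The difference between the responses passed an adjusted p of 0.05 in 5 of the 10 genes (*Reg1*, *Reg3a*, *Reg3b*, *Reg3g* and *Dmbt1*), where 0.388% of 14415 genes tested did. Groups did not overlap for 7 of the 10 genes in stress vs. Ctrl and 8 in CORT vs. vehicle, beside 20.4% and 28.7% of all genes tested. In both comparisons the genes whose groups overlapped included *Reg4*. The remaining ones were *Stat3* and *Socs3* in stress and *Reg1* in CORT.

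The rest of the pathway was examined in 77 genes on lists of ligands, receptors, kinases, inhibitors and targets. All 77 were in the table, and 17 had 0 counts in every library. These included *Il22* itself and 9 of the other 11 ligands, the receptor chains *Il20ra*, *Il10ra* and *Osmr*, the acute-phase gene *Saa2*, the calprotectin genes *S100a8* and *S100a9*, and *Reg2*. A count of 0 allows up to 3 read pairs, which is 0.179 to 0.746 CPM depending on the library. *Lif*, a ligand of the gp130 receptors, had the highest CPM of the ligands, at 5.18 to 6.94 CPM in Ctrl. *Il6st*, which encodes gp130, had the highest CPM of the other receptor genes, at 39.5 to 48.8 CPM in Ctrl. *Reg3d* was at most 0.233 CPM.

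In stress vs. Ctrl, 2 of the 50 pathway genes tested passed an adjusted p of 0.05, beside 1.89% of all genes tested, and both were higher and over 2-fold. The count of those over 2-fold was 0 without Ctrl 1, Ctrl 2, Ctrl 3 or stress 4+5+6 and 1 without stress 1+2. *Cish*, a SOCS family inhibitor that STAT5 induces, was at 7.37, 6.94 and 5.24 CPM in Ctrl and 14.7, 14.6 and 25.2 CPM in stress (log2 1.48 ± 0.26, adjusted p = 0.0218, edgeR). *Il18*, a cytokine of the inflammasome pathway, was at 2.40, 1.91 and 2.32 CPM in Ctrl and 7.53, 5.16 and 11.3 CPM in stress (1.85 ± 0.35, adjusted p = 0.0282). In both genes stress lay above Ctrl without overlap. Their differences in CORT vs. vehicle were 0.47 ± 0.33 (adjusted p = 0.447) and 0.25 ± 0.47 (adjusted p = 0.808). The median log2 fold change of the 50 genes was 0.05, and that of the 12 epithelial IL-22 targets among them 0.06.

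In CORT vs. vehicle, 12 of 53 pathway genes passed an adjusted p of 0.05, 3 higher and 9 lower, and 7 of them changed over 2-fold. Of all 14656 genes tested 8.13% passed, 533 higher and 659 lower. Among the epithelial targets of IL-22, 4 of 12 fell: *Duox2* and *Duoxa2*, a dual oxidase and its maturation factor, *Pla2g5*, a secreted phospholipase, and *Tifa*, an adaptor of innate sensing. *Duox2* was at 37.6, 11.8 and 36.2 CPM in vehicle libraries 3, 5 and 6 and 10.9, 6.77 and 8.40 CPM in CORT. *Pla2g5* was at 70.9, 55.5 and 80.6 CPM in vehicle and 32.0, 26.3 and 31.0 CPM in CORT. The log2 fold changes were -1.72 ± 0.38 (*Duox2*, adjusted p = 0.0254, edgeR), -2.32 ± 0.57 (*Duoxa2*, 0.0379), -1.22 ± 0.14 (*Pla2g5*, 0.00121) and -0.83 ± 0.18 (*Tifa*, 0.0214). The median of the 12 targets was -0.77 beside 0.01 for all genes tested. *Lcn2*, which encodes an iron-withholding protein and was named after its values were seen, lay the other way, at 2.38, 0.757 and 3.40 CPM in vehicle and 9.91, 5.72 and 5.68 CPM in CORT, without overlap (1.67 ± 0.46, adjusted p = 0.0561). *Pigr*, the carrier of IgA and the target with the highest CPM, was at 3972 to 4222 CPM in vehicle and 3708 to 3728 CPM in CORT (-0.15 ± 0.08, adjusted p = 0.292).

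Among the 11 genes known as STAT3 targets, 3 fell and 2 rose in CORT. *Bcl3*, a nuclear partner of NF-kappaB, was at 39.3, 48.4 and 89.2 CPM in vehicle libraries 3, 5 and 6 and 15.0, 13.9 and 19.9 CPM in CORT (-1.87 ± 0.28, adjusted p = 0.0047, edgeR). It was the gene most like *Socs3* over the 12 libraries (r = 0.919) and was also highest in vehicle 6. *Cebpb* and *Junb*, transcription factors of the acute phase and the immediate early response, fell by 1.01 ± 0.13 (adjusted p = 0.00232) and 0.81 ± 0.19 (adjusted p = 0.0327). *Bcl6*, a transcriptional repressor, was at 13.6, 11.5 and 7.81 CPM in vehicle and 43.9, 46.1 and 26.2 CPM in CORT (1.83 ± 0.26, adjusted p = 0.00313). *Bcl2l1*, which encodes the survival factor BCL-XL, rose by 0.99 ± 0.12 (adjusted p = 0.00131). *Mcl1*, another survival factor and the highest of these targets in CPM, was at 184 to 188 CPM in vehicle and 159 to 169 CPM in CORT (-0.18 ± 0.07, adjusted p = 0.146). The median of the 11 genes was -0.16.

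**Figure D5:**
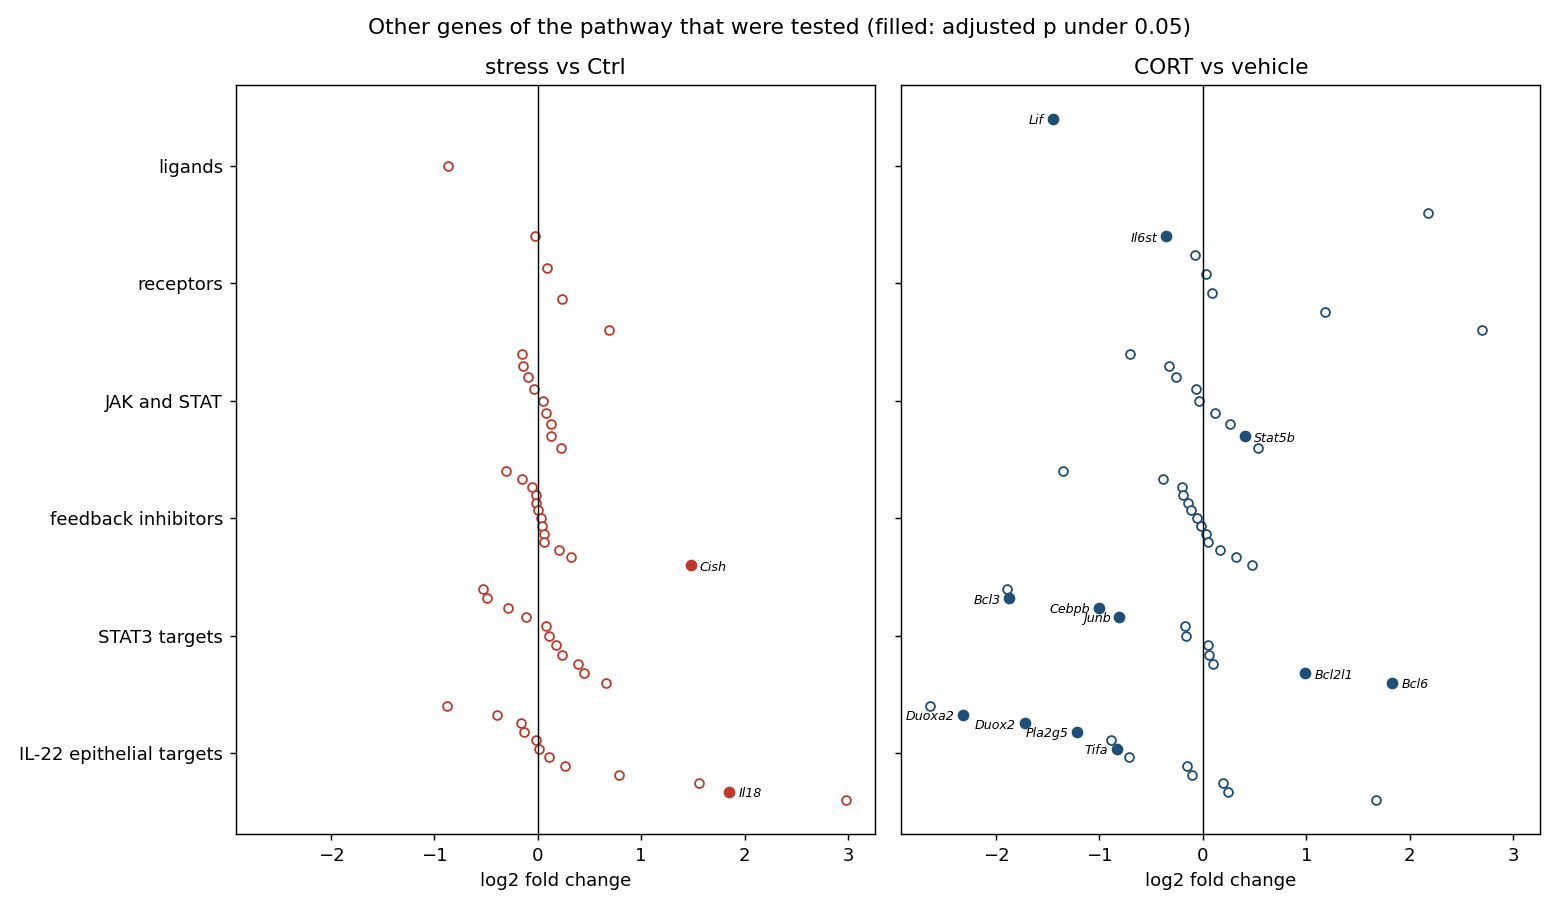
Log2 fold change (horizontal axis) of each pathway gene tested, by list, in stress vs. Ctrl (left, 50 genes) and CORT vs. vehicle (right, 53 genes); filled and named points have an adjusted p under 0.05 in edgeR's test. The 2 such genes in stress are higher, and in CORT 9 are lower and 3 higher.

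Upstream, *Lif* fell by 1.45 ± 0.26 on the log2 scale in CORT (5.22 to 6.48 CPM in vehicle, 1.74 to 2.79 in CORT, adjusted p = 0.0105, edgeR). *Il6st* fell by 0.35 ± 0.09 (adjusted p = 0.0483), and *Stat5b*, a STAT of growth hormone and cytokine receptors, rose by 0.40 ± 0.10 (adjusted p = 0.0335). *Stat5a*, whose annotated end overlaps that of *Stat3* by 72 bases on the opposite strand, was at 14.4 to 15.5 CPM in vehicle and 19.1 to 25.7 CPM in CORT (0.53 ± 0.15, adjusted p = 0.0684). The difference of *Stat6*, the highest in CPM of the other JAK and STAT genes, was -0.26 ± 0.07 in CORT (adjusted p = 0.0592) and -0.15 ± 0.09 in stress (adjusted p = 0.517). That of *Ptpn11*, the highest in CPM of the 13 inhibitors, was -0.15 ± 0.07 in CORT (adjusted p = 0.246). *Bcl6* was the 1 of 52 pathway genes whose responses differed (-2.36 ± 0.37, adjusted p = 0.0173). It lost the threshold without Ctrl 1, Ctrl 2, stress 1+2 or CORT 4. In vehicle vs. Ctrl, 0 of 49 pathway genes passed in edgeR and 0 were called by DESeq2. In edgeR 16 had an unadjusted p under 0.05. The share of all genes at that level was not computed, so no shift of the pathway can be read from this count.

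By likeness over the 12 libraries, *Il22ra1* stood closest to *Rad21*, a cohesin subunit (r = 0.972), *Aoc2* (0.960) and *Kif15*, a mitotic kinesin (0.957). *Stat3* stood closest to *Gpa33* (0.932), *Pvrl2* (0.928) and *Pla2g5* (0.921), and *Socs3*, after *Bcl3*, to *Tlr2* (0.918) and *Ptger4* (0.902). The genes most like *Il10rb* were *B4galt3* (0.937), *Tcf23* (0.906) and *Parm1* (0.881), and those most like *Dmbt1* were *Lrpprc* (0.906), *Coq4* (0.904) and *Rbm45* (0.879). For *Reg4* they were *Sec24a* (0.881), *Apex2* (0.858) and *Dync1li2* (0.853). The third most like *Reg3b* was *Gramd3* (0.885), and *Slc39a4* (0.894) and *Tm4sf20* (0.887) followed *Reg3b* in likeness to *Reg3g*. These are correlations of log2 levels over libraries that share groups, given as a description.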

How the data were processed

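Libraries of random-primed cDNA were sequenced by the authors as paired reads and aligned to mm10 with HISAT2; the submitters' processing notes give HISAT2 2.2.1 and StringTie 2.2.1, and the methods name another counting tool. Deposited are estimated counts of each gene, not divided by library size, in which 1 count is worth 75 covered bases in every library (the median over genes with 1 transcript). The authors also deposited FPKM and coverage (a signal not divided by library size) for each library; FPKM served for levels between genes and for alternatives, coverage only to find what a count is worth. Columns without a sample numbered 0, and 126 symbols occurred more than once, none of them among the 10 genes.

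Estimated counts were tested with edgeR 4.0.16 in R 4.3.3 (quasi-likelihood test, TMM, filterByExpr, Benjamini-Hochberg over all genes tested) on the 6 libraries of a comparison, and the difference between the responses, (stress minus Ctrl) minus (CORT minus vehicle), on all 12. A call needs an adjusted p under 0.05 and over 2-fold, and for the difference between responses the adjusted p alone. The SE is the log2 fold change over the root of F. CPM use TMM factors over the 12 libraries. The biological coefficient of variation was 16.8% to 19.2%. Other settings were DESeq2 1.42.0, edgeR with the size factors of DESeq2, other filters, limma 3.58.1 on log2(FPKM + 1) and log2(FPKM + 0.1), counts thinned to the lowest total, 1 fit on 12 libraries, and each library left out. Likeness is Pearson's r of log2(CPM + 1) among genes with a mean of at least 1 CPM. SE and SD include the spread between libraries, and the limit given for a count of 0 covers counting error only.

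Named are the 10 genes, pathway genes past an adjusted p of 0.05 and the gene of each list with the highest mean CPM (not per length), the 3 genes most like each of the 10, and *Fgfr2*, *Gm21970* and *Stat5a*, which overlap them. The genes, the pathway lists and the marker lists were chosen with earlier results of these data known. Positions are those of the files (mm10), transcripts are from GENCODE M21 and promoters from RefSeq (GRCm38.p6), which matched 8 of the 10 genes by symbol.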

Additional observations from a re-analysis of the deposited data

Results flagged for a closer look

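The responses to restraint and to corticosterone differed, by a test of the difference itself (edgeR on 12 libraries, Benjamini-Hochberg adjustment), in 5 of the 10 genes and in 1 pathway gene. The log2 fold change in stress less that in CORT was 3.89 for *Reg3b* (adjusted p = 0.0209), 3.70 for *Reg3a* (0.0355), 3.40 for *Reg1* (0.00711), 3.40 for *Reg3g* (0.0461) and 1.32 for *Dmbt1* (0.0207). That of *Bcl6* was -2.36 (0.0173). *Bcl6* was at 22.87, 19.44 and 18.23 CPM in Ctrl and 13.12, 18.86 and 10.04 CPM in stress. It was at 13.61, 11.52 and 7.807 CPM in vehicle and 43.93, 46.14 and 26.19 CPM in CORT. Its vehicle libraries lay below Ctrl without overlap, though this difference did not pass the test (log2 -0.88 ± 0.21, adjusted p = 0.103, edgeR). The difference between its responses thus rests on 2 control groups whose levels lay apart. For *Reg1* the difference lay in stress, with -0.20 in CORT vs. vehicle, and for *Reg3b* it joined a rise in stress and a fall in CORT. The control groups of *Reg3b* overlapped, and its difference of vehicle from Ctrl was 1.25 ± 0.37 on the log2 scale (adjusted p = 0.18, edgeR). *Dmbt1* was higher in vehicle than in Ctrl by 1.42, so its difference rests on 2 control groups that themselves differed. With each of the 12 libraries left out in turn, *Reg1* passed 12 times. *Reg3b* passed 7 times and failed without Ctrl 1, Ctrl 2, Ctrl 3, CORT 2 or CORT 4, and its value was 3.17 without vehicle 6. *Dmbt1* passed 7 times and failed without Ctrl 1, Ctrl 2, vehicle 5, CORT 4 or CORT 5. *Reg3g* passed 4 times, without stress 3, stress 4+5+6, vehicle 5 or CORT 5, and was 2.73 without vehicle 6. *Reg3a* passed 3 times, without stress 3, vehicle 3 or vehicle 5, and was 3.11 without stress 4+5+6. Of the pathway genes, 0 passed without Ctrl 1, Ctrl 2, stress 1+2 or CORT 4, so *Bcl6* failed in these fits. Explanations of these differences were not tested.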

How the results depend on the processing

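The log2 fold changes of the 10 genes over 4 comparisons gave 650 values under other settings, of which 558 kept their direction and side of the threshold, 72 lost the threshold, 9 gained it and 11 turned direction. The number of the 10 genes called in stress (4) became 5 with at least 10 counts in every library, 3 with either filtered log2(FPKM) setting or 1 fit on 12 libraries, 2 with no filter on low counts and 0 with log2(FPKM + 1) and no filter, and 2 to 4 with libraries left out. In CORT (4) it became 0 with log2(FPKM + 1) and no filter, and 1 to 5 with libraries left out. The calls in CORT also changed with the filtered log2(FPKM) settings. *Il22ra1* was at 0.98 with log2(FPKM + 1), under 2-fold and so not called. *Stat3* was at -1.065 with log2(FPKM + 0.1), over 2-fold, and was called. For the difference between responses (5) the number called became 3 with either log2(FPKM) setting, 0 with no filter on FPKM, and 1 to 5 with libraries left out, and in vehicle vs. Ctrl (1) 0 with no filter on FPKM and 1 to 2. Between responses, *Stat3* and *Il10rb*, not past the threshold in the main fit, each passed it in 1 of the 8 settings that kept all libraries. The highest number there was thus above 5. Unfiltered fits adjust over more genes and left-out libraries leave fewer samples, and what this contributes to these numbers was not tested. Pathway genes called in stress (2) became 0 with no filter, 0 with log2(FPKM + 1), 1 with log2(FPKM + 0.1), 0 with no filter on FPKM and 0 to 2 with libraries left out. In CORT (7) they became 11 with DESeq2, 4 with log2(FPKM + 1), 4 with log2(FPKM + 0.1) and 2 with no filter on FPKM, and 5 to 9. For the difference between responses (1) they became 4 with DESeq2, 0 with no filter on FPKM and 0 to 3, and in vehicle vs. Ctrl (0) 1 with at least 10 counts in every library and 0 to 3. The causes of all these changes were not tested. Values that turned direction were never past the threshold: *Stat3* in stress, -0.017 with log2(FPKM + 1), filtered or not, -0.018 with log2(FPKM + 0.1) and -0.10 to 0.19 with libraries left out; *Reg4* in CORT (-0.66 to 0.12) and between responses (-0.64 to 0.14); and *Reg3a* in vehicle vs. Ctrl (-0.012 with log2(FPKM + 0.1), -0.32 to 0.23 with libraries left out). *Il22ra1* in CORT and *Stat3* in CORT passed the adjusted threshold under all 15 settings, and *Il22ra1* in stress under 14 of 15, the exception being log2(FPKM + 1) with no filter (1.19, adjusted p = 0.07). No paired analysis was possible because the groups compared share fewer than 2 replicate numbers.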
